A study of Homo sapiens with 4 samples.

Results

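The RNA held by a control bait and its beads was described gene by gene, by setting a control pulldown library of HEK293T cells against a total RNA library of cells that received a control mimic. HEK293T is a line derived from human embryonic kidney that expresses the large T antigen of SV40. The series has 4 libraries, all from HEK293T cells: a pulldown with biotin-labelled miR-34a, a pulldown with a control that the submitters name NC, total RNA of cells given a miR-34a mimic, and total RNA of cells given an NC mimic. With 1 library in each of these 4 groups, differences have no replicate check and p-values were not computed. The NC bait and the NC mimic are not described further in the sources used here, nor are the beads, the washes, any selection of polyadenylated RNA, or whether the pulldown and the total RNA came from one culture. The ratio therefore sets apart 2 handlings of RNA and 2 kinds of control at once, and these cannot be told apart.

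Of 16489 genes with a row in either full table, 3092 had 20 or more reads in the control pulldown, and these are the members described. They held 83.0% of the 306996 control pulldown reads and 66.6% of the 45493090 control total RNA reads. At the threshold itself, 134 genes had exactly 20 pulldown reads, with log2 ratios from -2.42 to 3.29, and 121 genes had 19 reads, with log2 ratios from -2.38 to 9.46. The other pair of libraries held 546180 miR-34a pulldown reads and 42679778 miR-34a total RNA reads. Only transcripts with at least 1 control read are listed, so RNA seen with miR-34a alone would not be counted in these totals. In control total RNA, 9 of 9 markers of HEK293 cells had 20 or more reads, among them KRT8 with 40276, VIM with 28866 and IRS4 with 887. Of 11 markers of other cell types, 7 had no read in that library, and LYZ with 133 and VWF with 73 were the 2 with 20 or more. The summed level there was 2254 RPM (reads scaled to a library of 1000000 reads) for the first list and 4.92 RPM for the second. In the far smaller control pulldown KRT8 had 410 reads, KRT18 331, VIM 320 and NEFL 129. CDH2 had 10 in that pulldown, LIN28B 8, INA 2, and IRS4 and NEFM 0. Of the second list, COL1A2 had 15 and PECAM1 9, and the others 0.

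In a pulldown of this kind a microRNA carrying biotin is put into cells, and the RNA that it meets in the silencing complex is recovered on streptavidin. A control bait shows what the bait chemistry, the beads and the tube hold without that microRNA. Cells also hold proteins with biotin of their own, the carboxylases, which streptavidin can bind. Most mRNAs end in a poly(A) tail, whereas mRNAs of the replication-dependent histone genes end in a conserved stem-loop and are made as DNA is copied.

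A pair of sequence sets is shown, credited to RefSeq on GRCh38.p14. The first is the mature microRNA of the other bait, with its seed, bases 2 to 8, in capitals, because several results below turn on whether a value was also seen with that bait. It lies at chr1:9151735-9151756 on the minus strand.
hsa-miR-34a-5p: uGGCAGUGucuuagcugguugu

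The second set holds promoter windows of 30 bases, from 45 to 16 bases before the gene start, for histone genes that led the pulldown, for replacement histone genes that did not, and for LYSMD1 and VCL. The letters TATAAA on the sense strand are in capitals.
HIST1H1E (chr6:26156284-26156313, plus strand): gcgcagctccgccctaTATAAAcgggcggg
HIST1H2AG (chr6:27132998-27133027, plus strand): cgcccaatagtgttTATAAAaagcgccgcc
HIST1H3B (chr6:26032115-26032144, minus strand): ggtggtctgactcTATAAAagaagagtagc
HIST2H3A (chr1:149852563-149852592, plus strand): aaaagactgtgctTATAAAgacggctgcgg
HIST1H4D (chr6:26189128-26189157, minus strand): aggtccgtcatgctatTATAAAagtgctgc
HIST2H2AC (chr1:149886873-149886902, plus strand): cacccctaggaaagctTATAAAggctttcc
HIST1H2BO (chr6:27893380-27893409, plus strand): gcatatagacttgtaaataaatagggcata
H2AFZ (chr4:99950291-99950320, minus strand): ggaacattctgcagTATAAAgggagcaggg
H3F3B (chr17:75779795-75779824, minus strand): cagcgtgaagcgtgccTATAAAaacggagg
LYSMD1 (chr1:151165918-151165947, minus strand): gtgccctgcgactccgcagacgcggagcct
VCL (chr10:73998071-73998100, plus strand): gggagcccgtgaggctggttacgccgaggg

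The letters TATAAA, searched on the sense strand with their first base 40 to 20 bases before the gene start, were found for 28 of the 46 clustered histone members that have a promoter in the table, or 60.9%. The share over all 27305 promoters was 2.55%. Anywhere in the window of 250 bases before to 50 bases after the start, on either strand, the shares were 69.6% and 12.0%. Among replacement histone genes 4 of 10 promoters held the letters, including H2AFZ and H3F3B, whose pulldown levels were below their total RNA levels. The motif was therefore found in histone genes on both sides of the comparison.

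The ratio reported for a gene is log2 of its share of control pulldown reads over its share of control total RNA reads. Its 95% interval is an exact conditional binomial interval on the reads divided by 2, and it covers counting error only. The division was made since a read pair seems to have been counted as 2 reads, more clearly in total RNA than in the pulldown. All values are shares of a library, so more of one RNA and less of the others cannot be told apart, and neither can fewer cells with an RNA and less of it per cell. Over the 3092 members the ratio ran from -3.30 to 13.89, with a median of 0.21 and quartiles of -0.32 and 0.81. A ratio of at least 4-fold, a log2 value of 2 or more or of -2 or less, is called higher or lower. By this rule 104 members were higher, or 3.36%, and 50 were lower, or 1.62%, while 2938 lay between. The split depends on the scaling: of the genes called, 67.5% were higher with library totals, 79.4% with TMM (143 higher, 37 lower), 81.8% with DESeq2 size factors (153 and 34), and 56% with RPKM (93 and 73). Most of these 104 genes were of 3 families: 49 clustered histone genes, 5 MTRNR2L genes and 6 RRP genes, with 44 others. The families were drawn up by gene symbol, with values of these data known.

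The choice of members shapes these counts. A gene with fewer than 5 reads expected in the pulldown from its total RNA share can be a member only if it is at least 4-fold higher. There were 7570 such genes, and 72 of them were members. These included 47 of 59 clustered histone genes, 3 of 6 MTRNR2L genes, 5 of 7 RRP genes and 17 of 7498 other genes, which is 0.227%. For the low side, the 3870 genes with 20 or more expected reads were used, a set chosen by total RNA alone. In that set 11 genes were higher, or 0.284%, and 537 were lower, or 13.9%, with a median of -0.49.

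**Figure D1:**
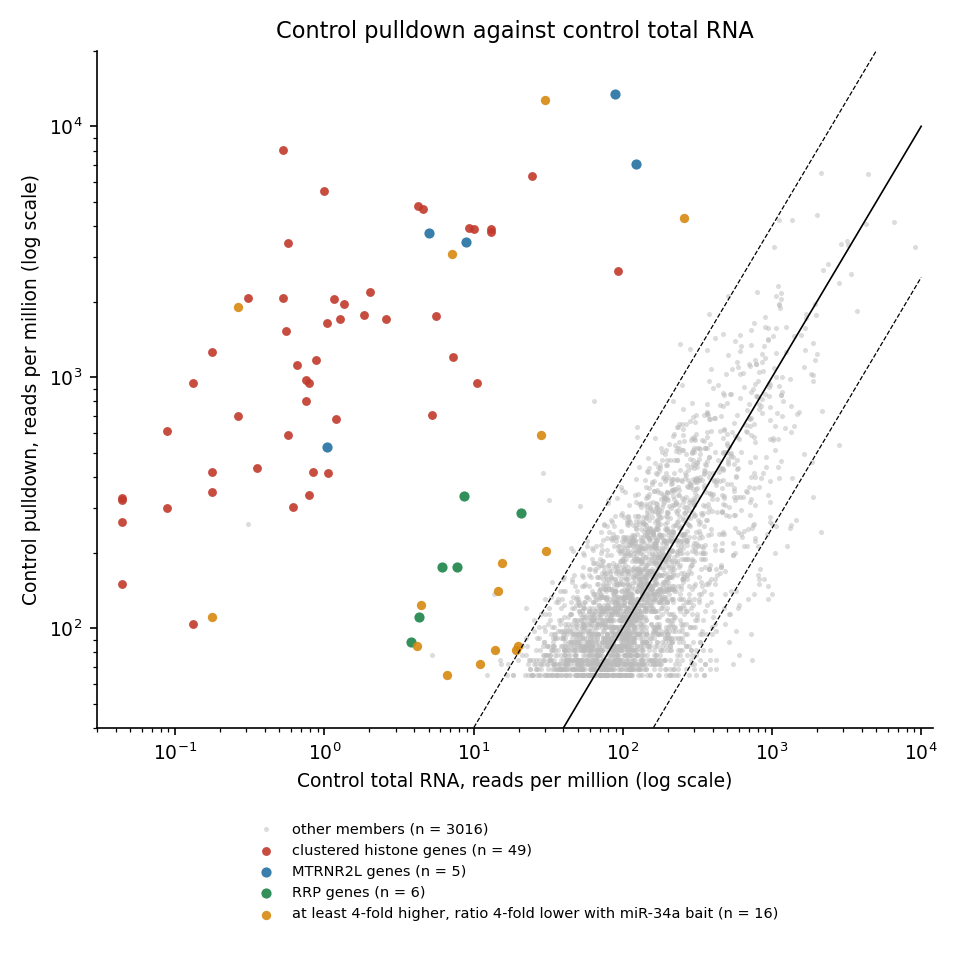
RPM of each of the 3092 members in control total RNA (x axis, log scale) and in the control pulldown (y axis, log scale), 1 library each. The solid line marks equal shares and the dashed lines 4-fold, and the flat lower edge is the threshold of 20 reads; the 49 clustered histone genes lie far above the upper dashed line.

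The clustered histone genes stood highest. These genes, in groups on chromosomes 6 and 1, encode the core histones that wrap DNA and the linker histone H1. Together the 61 genes held 8.82% of control pulldown reads and 0.0238% of control total RNA reads, 27080 and 10838 reads. The log2 ratio of these sums was 8.53 (95% interval 8.49 to 8.58). All 49 members were at least 4-fold higher, from 4.84 to 13.89 with a median of 10.28; 35 of them lie on chromosome 6, 13 on chromosome 1 and 1 on chromosome 12. Since 59 of the 61 genes could be members only when higher, the sums over all 61 genes describe the class better than the count of members.

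All 5 classes were higher when every gene of the class was summed. The 12 H3 genes had a log2 ratio of 10.30, from 5512 pulldown and 647 total RNA reads. The 13 H4 genes followed at 9.38, the 4 genes of linker histone H1 at 9.18 and the 16 H2A genes at 8.99. The 16 H2B genes were at 6.75, from 4065 and 5604 reads, but HIST1H2BK alone held 4216 of the 5604, and without it H2B was at 8.44. By the median of their members the order differed, with H1 at 11.74, H2A at 10.67, H4 at 10.49, H3 at 10.14 and H2B at 9.50. Among the sums the interval of H1 overlaps those of H4 and H2A.

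HIST1H1E, a linker histone gene, had 2462 reads in the control pulldown and 24 in control total RNA, the highest ratio of any member at 13.89 (95% interval 13.08 to 14.85). HIST1H2AG, an H2A gene, had 1692 and 45 reads and a ratio of 12.44. HIST1H3B, an H3 gene, had 1048 and 26 reads and a ratio of 12.54. These 3 genes rest on few total RNA reads, so their order is not resolved by the intervals. HIST1H4D, an H4 gene, had 290 and 6 reads, with a ratio of 12.81 and an interval from 11.23 to 15.10. HIST2H2AB had 101 and 2 reads, a ratio of 12.87 with an interval from 10.33 to 18.20.

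Some histone genes had many more total RNA reads and smaller ratios. HIST1H1C had 1942 pulldown and 1114 total RNA reads, a ratio of 8.01. The near-identical pair HIST2H3A and HIST2H3C had 1471 and 1437 pulldown reads against 193 and 207, and because reads can fit either copy their split is uncertain. This holds for the other near-identical histone genes too. HIST1H2BK had 814 and 4216 reads and the lowest ratio of the histone members, 4.84 (95% interval 4.68 to 4.99). Of the 12 genes that were not members, 11 had at most 12 total RNA reads or none, and the pseudogene HIST2H2BC had 1 pulldown and 518 total RNA reads, a ratio of -1.81 (95% interval -11.80 to 1.43).

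The replacement histone genes, whose mRNAs mostly carry a poly(A) tail and are made throughout the cell cycle, lay mostly below equal shares. This list was put together after the histone values were seen. Of its 12 genes 8 were members, 1 higher and 1 lower, with a median of -0.76. H2AFX, which makes both a stem-loop and a polyadenylated mRNA, had 547 pulldown and 17109 total RNA reads and a ratio of 2.24 (95% interval 2.07 to 2.42). H3F3A, which encodes histone H3.3, had 20 and 14006 reads and a ratio of -2.24. Its partner gene H3F3B had 73 and 28180 reads, a ratio of -1.38, and H2AFZ had 87 and 25755 reads, a ratio of -0.998. H2AFV was at -1.62, H2AFY at -0.52 and H1FX at -0.07. No interval of these 8 members reached the lowest ratio of a clustered histone member. That gap is partly made by the threshold, since most clustered genes could be members only when higher. HIST2H2BC, at -1.81, was left out by it.

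**Figure D2:**
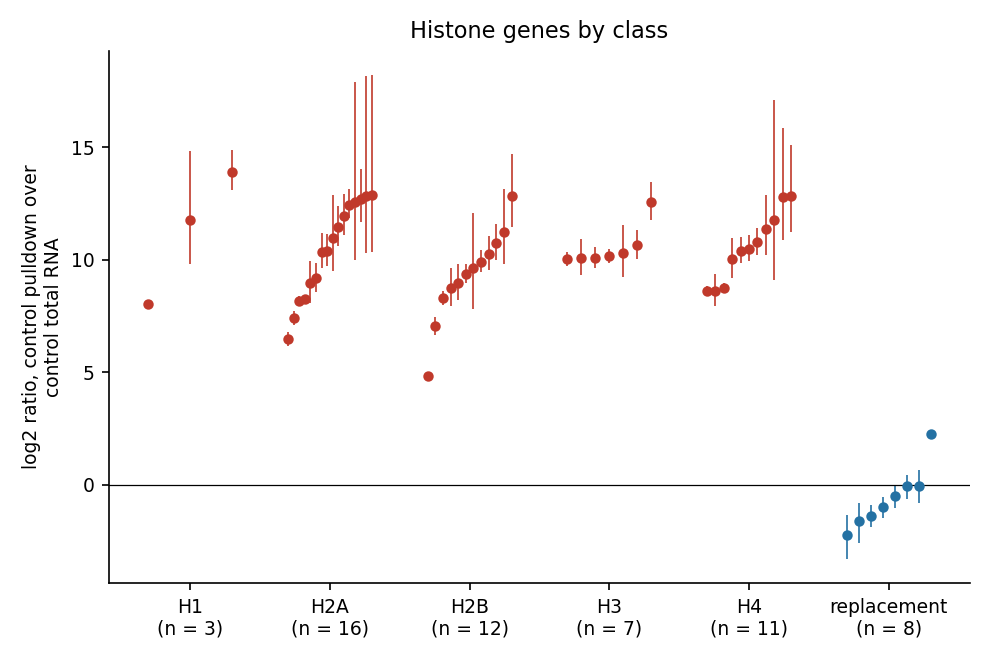
Log2 ratio of control pulldown over control total RNA (y axis) for each histone member, by class (x axis); each point is 1 gene and its bar the 95% counting interval. The 49 clustered members lie at 4.84 or above, and the 8 replacement members between -2.24 and 2.24. Most clustered genes could be members, and so be drawn, only when at least 4-fold higher.

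The same ratio was taken in libraries that the comparison did not use, the miR-34a pulldown over miR-34a mimic total RNA. All 49 clustered histone members were at least 4-fold higher there as well, beside 3.04% of the members as a whole (1.46% were lower), and 2 of them, HIST1H1D and HIST1H2AJ, had no read in that total RNA. The histone genes held 8.43% of miR-34a pulldown reads and 0.0149% of the total RNA reads, a log2 ratio of sums of 9.14 against 8.53 with the control bait. HIST1H1E had 4447 and 20 reads there. The histone excess was thus measured with both baits, in pulldowns that share no library.

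The MTRNR2L genes were the second family. They are nuclear near-copies of the mitochondrial 16S ribosomal RNA gene, and reads of that RNA, which is abundant, can fit them, so their counts are uncertain as counts of these genes. They held 2.82% of control pulldown reads and 0.0227% of control total RNA reads. MTRNR2L8 had 4122 and 4020 reads, the most pulldown reads of any gene, and a ratio of 7.25 (95% interval 7.16 to 7.34). MTRNR2L2 had 2163 and 5556 reads, a ratio of 5.85. MTRNR2L6 stood highest at 9.54, from 1153 and 229 reads, MTRNR2L1 was at 8.59, and MTRNR2L10 had 162 and 47 reads. With the miR-34a bait the same 5 genes were also at least 4-fold higher, and MTRNR2L8 had 10732 and 4145 reads, a ratio of 7.66.

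Another family carries the symbol RRP, for ribosomal RNA processing. It was drawn up by symbol, with values of these data known. Of 8 RRP genes measured, 6 were members and all 6 were higher, from 3.79 to 5.29. But 7 of the 8 genes, and 5 of the 6 members, had fewer than 5 expected reads. Those genes could be members only when higher. RRP1B, a nucleolar protein gene, had 103 pulldown and 391 total RNA reads and a ratio of 5.29 (95% interval 4.81 to 5.74). RRP12 had 54 and 278 reads, a ratio of 4.85, and RRP36 had 34 and 196, a ratio of 4.68. RRP9, a component of the U3 snoRNP, was at 4.53, RRP1 at 4.50 and RRP7A at 3.79. Below the threshold, RRP8 had 11 and 217 reads, a ratio of 2.91, and RRP15 had 1 and 241 reads, a ratio of -0.70.

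The RRP ratios were of like size with the miR-34a bait, where RRP1B was at 4.80, RRP12 at 4.07 and RRP36 at 4.91. Their total RNA reads were low in both total RNA libraries: RRP1B had 391 and 339 reads, and RRP12 had 278 and 266. Over the 8 RRP genes the total RNA level was 3.80 to 20.8 RPM, with a median of 5.70, and the pulldown level had a median of 143 RPM. The same 9 RRP transcripts are listed in both tables, but whether reads were assigned to them in the same way in both was not tested. A further list of 60 ribosome biogenesis genes was put together after these values were seen. Its genes had 38.7 to 1334 RPM in total RNA and a median of 129 RPM in the pulldown, values that like those of the RRP genes are not corrected for length. Its 51 members had a median of 0.20, and 1 of them was called, NPM1, on the low side. POLR1A, the large subunit of RNA polymerase I, was at 1.84 from 109 and 4496 reads, and NPM1, nucleophosmin, was at -2.37 from 79 and 60675 reads.

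**Figure D3:**
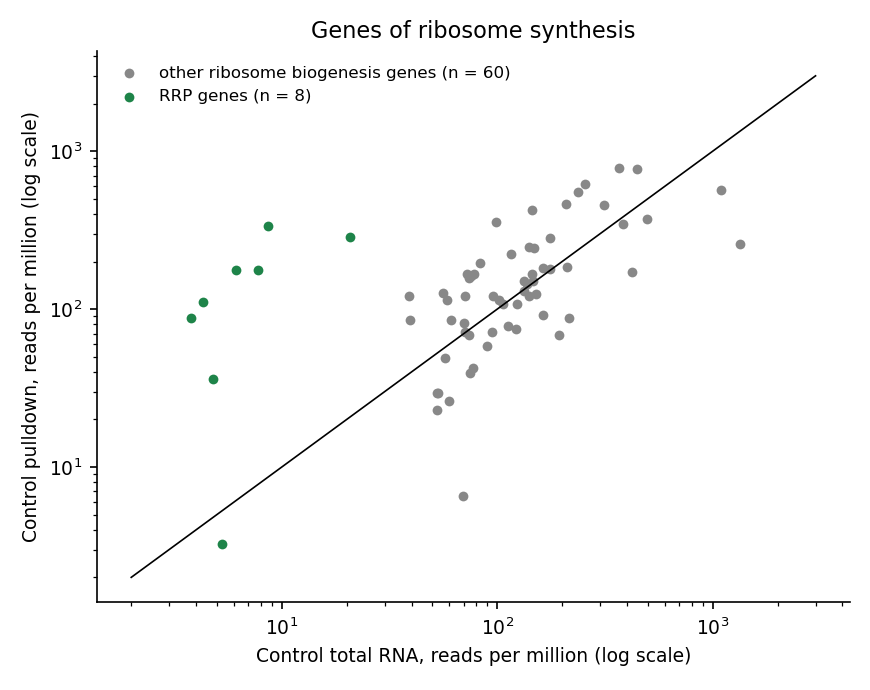
RPM in control total RNA (x axis, log scale) and in the control pulldown (y axis, log scale) for RRP genes (green) and other ribosome biogenesis genes (grey) that had a pulldown read; the line marks equal shares. The values are not corrected for transcript length, so a gene is read by its distance from the line; the 6 RRP members lie above it by 3.79 to 5.29 on the log2 scale.

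Besides these families, 44 members were at least 4-fold higher. In the miR-34a pair 12 of the 44 were also at least 4-fold higher, 18 were higher by less, 13 were on the other side of equal shares, and FAM84A had no total RNA read. The miR-34a intervals of all these 13 genes reach past equal shares, so their side is not resolved by counting. All 60 members of the 3 families were at least 4-fold higher in both pairs. Their control ratios were 3.79 or more, whereas many of the 44 lay closer to the 4-fold cut. A small shift would take a gene near the cut under it. But 16 of the 44 had a ratio at least 4-fold smaller in the miR-34a pair. Moreover 47 histone, 3 MTRNR2L and 5 RRP members could be members only when higher, as could 17 of the 44. Whether the families would differ from the 44 at equal control ratios was not tested.

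A set of 16 genes was at least 4-fold higher in the control pair and had a ratio at least 4-fold smaller in the miR-34a pair. They held 7331 reads in the control pulldown and 281 in the miR-34a pulldown, 2.39% and 0.0514% of those libraries, and 0.0463% of control total RNA. Most of these reads came from 4 genes, LYSMD1, AVIL, BHLHE22 and VCL, with 2.21% of the control pulldown and 0.0350% of the miR-34a pulldown. Their shares of the 2 total RNA libraries were 0.0295% and 0.0308%.

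LYSMD1, a gene for a protein with a LysM domain, had 3918 reads in the control pulldown, 1360 in control total RNA, 38 in the miR-34a pulldown and 1593 in miR-34a total RNA. Its ratio was 8.74 (95% interval 8.61 to 8.87) with the control bait and 0.90 with miR-34a. AVIL, which encodes the actin-binding protein advillin, had 948, 327, 22 and 372 reads in the same order, and ratios of 8.75 and 2.21. BHLHE22, a transcription factor gene of neurons, had 582 reads in the control pulldown and 12 in its total RNA, a ratio of 12.81, and 0 in the miR-34a pulldown against 24 in its total RNA. By share of reads, these 3 genes were high in the control pulldown and far lower in the other 3 libraries.

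VCL, which encodes vinculin, a link between adhesion sites and actin, had 1326 control pulldown reads against 11699 in total RNA, a ratio of 4.07 (95% interval 3.95 to 4.19). In the miR-34a pair it had 131 and 11151 reads, a ratio of -0.12. C3orf38 had 180 and 1293 reads with the control bait, a ratio of 4.37, and 3 and 919 with miR-34a. The pseudogene WBP11P1 had 34 and 8 reads with the control bait, a ratio of 9.30, and 0 and 6 with miR-34a. The other members of the set were ISPD at 4.81, the kinase gene MAST1 at 4.35, CEP85L at 3.56, BCAR3 at 3.29, the semaphorin gene SEMA3E at 3.28, VPS13C at 2.72, THAP1 at 2.70, ARC at 2.56, CASZ1 at 2.10 and TRIB3 at 2.08. Of the 16 genes 10 had fewer than 5 expected reads, so they could be members only when at least 4-fold higher. FAM84A, with 80 and 14 control reads and a ratio of 9.73, had 2 miR-34a pulldown reads and 0 in miR-34a total RNA, so it has no ratio there. Whether these RNAs share letters with the control bait was not tested, since its sequence was not used here.

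The other genes high with either bait had smaller ratios than the histone members. EPPK1, which encodes epiplakin, a cytoskeletal linker, had 247 pulldown and 2896 total RNA reads, with ratios of 3.66 for the control and 2.80 for miR-34a. SOGA1 was at 3.34 and 2.64, and TSPAN7, a tetraspanin gene, at 3.33 and 2.47. IGF2, insulin-like growth factor 2, was at 3.88 and 2.08 from 24 pulldown reads in each pair. UHRF1, which reads hemimethylated DNA after replication, was at 2.36 and 2.14 from 195 and 312 pulldown reads. MRPL23, a mitochondrial ribosomal protein gene, was at 2.21 and 2.27, and NDUFB7, a subunit of respiratory complex I, at 2.02 and 2.16. PIK3R1, RAD54L2 and PHLPP1 were at 2.43, 2.12 and 2.13 with the control bait.

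**Figure D4:**
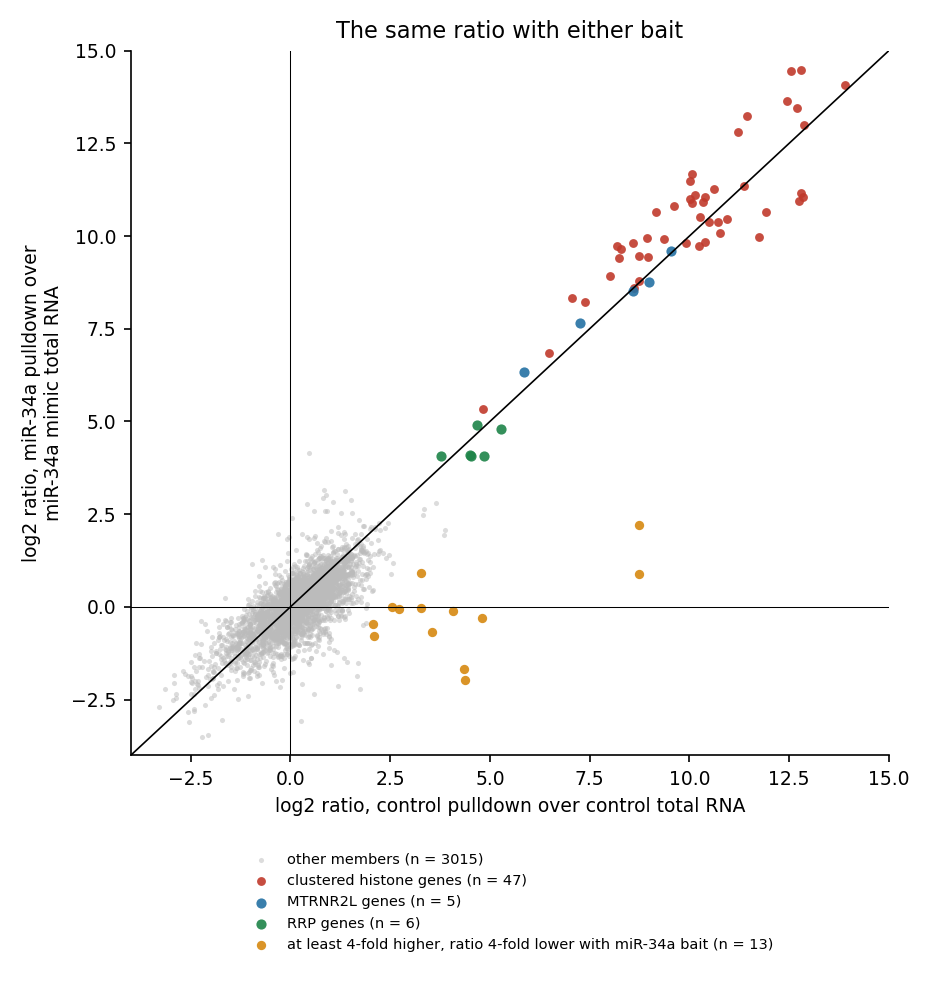
Log2 ratio of pulldown over total RNA with the control bait (x axis) and with the miR-34a bait (y axis) for members with reads in all libraries needed; 47 of 49 clustered histone genes and 13 of 16 genes high with the control bait have a finite value in both and are drawn. Histone, MTRNR2L and RRP genes lie on both sides of the line of equal ratios. Some histone genes lie well off it, such as HIST1H3B at 12.54 and 14.45 and HIST1H4B at 12.76 and 10.96. The genes in orange lie below it by a log2 difference of 2 or more, which is the rule that chose them.

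Across genes the ratios of the 2 pairs moved together, given here as a description, since genes are not replicates and both pulldowns may share handling. Over 3086 members Pearson's r was 0.90 and Spearman's rho 0.73. Without clustered histone and MTRNR2L genes, over 3034 members, r was 0.71 and rho 0.71. Over 3838 genes with 20 or more expected reads r was 0.80 and rho 0.81.

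The lowest members were abundant mRNAs. HNRNPD, an RNA-binding protein gene, had 23 pulldown and 33612 total RNA reads and the lowest ratio of all members, -3.30 (95% interval -4.28 to -2.48). PTMA, prothymosin alpha, had 74 and 96574 reads and a ratio of -3.14. TMBIM6, a membrane protein of the endoplasmic reticulum, was at -2.94, the histone chaperone gene NAP1L1 at -2.93 and TOMM20, a receptor of mitochondrial protein import, at -2.93. Further low genes were HNRNPC at -2.86, the HSP90 co-chaperone gene PTGES3 at -2.86, HMGB1 at -2.69, MORF4L1 at -2.63 and HSP90B1 at -2.58. HNRNPH1 followed at -2.56, SUMO2 at -2.54, EIF2S3 and HNRNPA2B1 at -2.50 each, and CDC42 at -2.50. The interval of HNRNPD holds the ratios of the other 14 genes, so its place at the end is not resolved by counting.

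In the miR-34a pair 24 of the 50 lower members were also at least 4-fold lower, 26 were lower by less, and 0 were on the other side. HNRNPD was at -2.70 there and PTMA at -2.22. The median total RNA level of the 50 lower members was 587 RPM, against 123 RPM over all members. The threshold of 20 reads asks for that, since a gene 4-fold lower needs 80 expected reads to be a member.

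Among the 3870 genes with 20 or more expected reads, 21 had no row in the pulldown table, with 20.1 to 46.1 reads expected, among them CALU, SNRPB2 and CFL2. CALU, which encodes the calcium-binding protein calumenin, had 6828 total RNA reads, and its interval reaches up to -2.64. The lowest genes with a row had 1 pulldown read each. YME1L1, a mitochondrial protease gene, had 1 and 8722 reads, a ratio of -5.88 (95% interval -15.87 to -2.65). TMEM30A, a flippase subunit gene, was at -5.30, GAR1, of box H/ACA snoRNPs, at -5.03, CMTM6 at -4.99, YIPF6 at -4.96 and LYAR at -4.93. With the miR-34a bait YME1L1 was at -3.22 and TMEM30A at -5.15. Of the genes of this set with a read in both pulldowns, 506 were at least 4-fold lower in the control pair and 335 in the miR-34a pair. Over the 3849 genes of the set that have a row in the pulldown table, 8.99% were lower in the miR-34a pair and 0.468% higher. The 239 in both are 47.2% of the first and 71.3% of the second.

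Gene lists were described in that set of 3870 genes, where 13.9% of all genes were lower and the median was -0.49. TMM scaling raised every ratio by 0.22 and DESeq2 size factors by 0.28, so the lists are read against the median of all genes, which moves with them. The 35 genes for chaperones of the endoplasmic reticulum and the secretory pathway had a median of -1.40, with 11 lower and 0 higher. HSP90B1, the reticulum's HSP90, was at -2.58 from 65 and 57456 reads, and CANX, the lectin chaperone calnexin, at -2.31 from 50 and 36716. PDIA6, a disulfide isomerase gene, was at -1.57.

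Of 40 translation initiation and elongation factor genes 9 were lower, with a median of -1.06, but they ran apart by subunit. EIF2S3, the gamma subunit of eIF2, was at -2.50 and EIF5B at -2.32. Within the 13 subunits of eIF3, EIF3E was lowest at -3.07 and EIF3B highest at 1.26, with a median of 0.19. EEF2, which moves the ribosome along the mRNA, had 1984 and 201244 reads and a ratio of 0.55.

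Of 56 genes for SR proteins, hnRNPs and other splicing factors 16 were lower and 0 higher, with a median of -0.80. The 21 HNRNP genes had 9 lower and a median of -1.34, from HNRNPH3 at -3.38 to HNRNPM at 0.11. The 11 SRSF genes had 3 lower and a median of -1.32, from SRSF5 at -3.10 to SRSF2 at 0.13. With the miR-34a bait the medians of these 2 families were -1.59 and -1.32. Both families were picked out after the values were seen.

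Ribosomal protein genes, although abundant, lay near the middle. The 78 cytosolic genes had a median of -0.37, with 0 higher and 1 lower, and they held 8.14% of pulldown and 9.02% of total RNA reads. RPL13 was at 1.14 from 1355 and 91350 reads, while RPS13 was at -2.42 from 40 and 31624. RPL34 was at -1.99 and RPS24 at -1.82. The 45 RPL genes had a median of -0.24 and the 31 RPS genes -0.51. With the miR-34a bait the median of the 78 genes was 0.03, against a median of all genes of -0.37. Of 41 mitochondrial ribosomal protein genes 1 was higher, MRPL23, and 3 were lower, with a median of -0.14.

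Genes for actin, tubulin, filament and motor proteins lay at the high end, with 3 of 38 higher, 0 lower and a median of 0.46. The 3 were VCL, PLEC and TLN1. PLEC, which encodes the giant linker plectin, had 416 and 11051 reads, a ratio of 2.48, and TLN1, which encodes talin, had 397 and 12760 reads, a ratio of 2.20. FLNA, the actin crosslinker filamin A, was at 1.61 from 2002 and 97346 reads. AVIL is on this list too but had fewer than 20 expected reads. In the miR-34a pair PLEC was at 1.41, TLN1 at 1.79 and FLNA at 0.61, and the median of the list was 0.22.

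Chromatin remodelers and histone methyltransferases had 0 of 40 higher or lower and a median of 0.17. KMT2D, a histone H3 lysine 4 methyltransferase gene, was at 1.56 and SMARCA5, an ISWI ATPase gene, at -1.20. With miR-34a the median was 0.63 and KMT2D was at 2.52. The 114 cancer panel genes had a median of -0.10 with the control bait and 0.65 with miR-34a, and 9 of them were lower with the control bait, among them XPO1, the nuclear export receptor, at -2.48.

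Nuclear-encoded respiratory chain genes had 9 of 67 lower, 1 higher and a median of -0.85, housekeeping genes 5 of 25 lower and a median of -0.83, and genes of mitosis 0 of 27 lower and a median of -0.68. Proteasome subunits had 3 of 31 lower and a median of -0.55, genes of DNA replication 2 of 33 and -0.42, and tRNA synthetases 1 of 21 and -0.37. The cholesterol and fatty acid list had 3 of 19 lower and a median of -0.61, although FASN, the fatty acid synthase gene, was at 1.93 from 1301 and 50424 reads. Glycolysis genes had 0 of 14 higher or lower and a median of 0.06, with LDHA at -1.95. Genes for collagens, laminins and adhesion proteins had 0 of 15 and 0.08, with ITGB1 at -1.72. Zinc finger genes had 5 of 33 lower and a median of -0.45, and immediate early genes 2 of 12 and -0.17. Heat shock chaperones had 1 higher and 2 lower of 28 and a median of -0.45. The 1 higher was HSPA1A at 2.06 from 649 and 23067 reads, whose near-identical copy HSPA1B was at 1.65, so their split is uncertain.

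**Figure D5:**
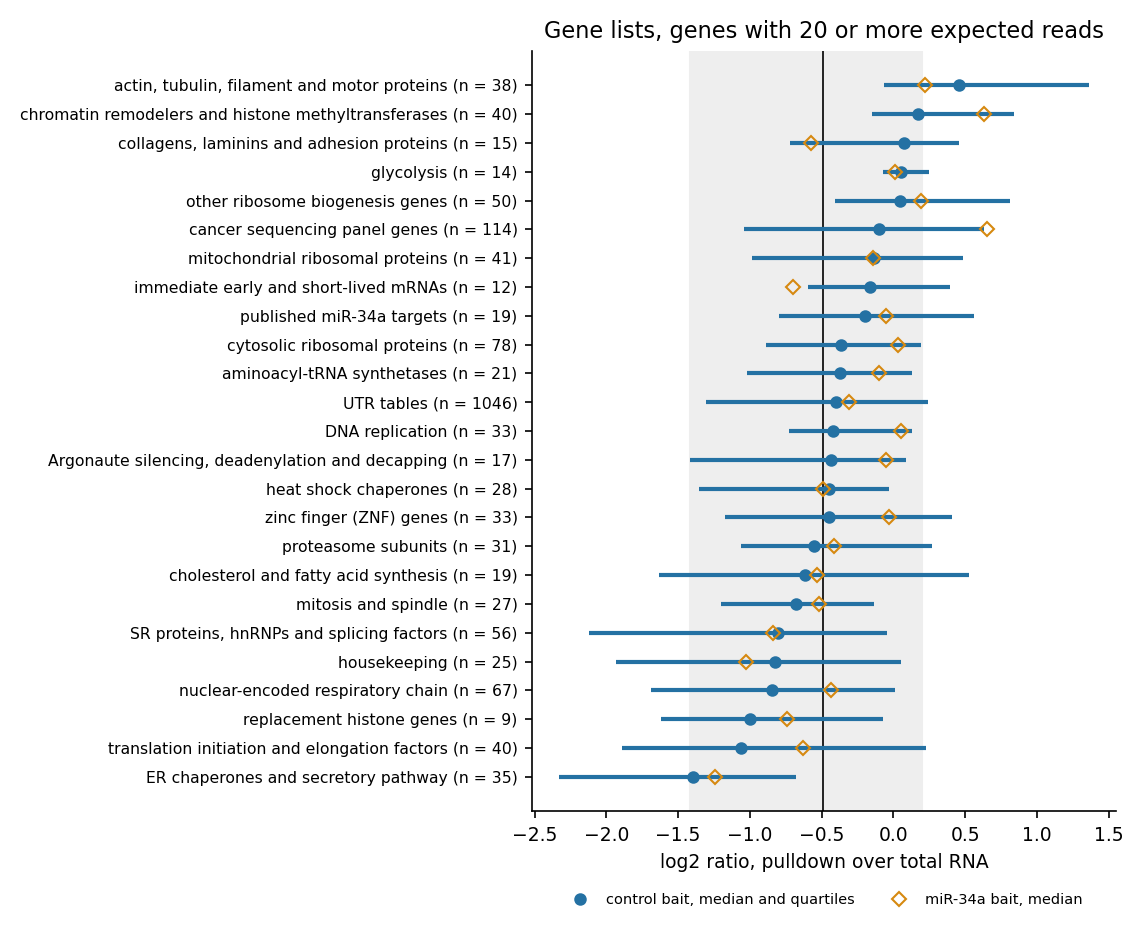
Median log2 ratio of each gene list of 9 or more genes (points) with its quartiles (bars) for genes with 20 or more expected reads, control pulldown over control total RNA; open diamonds are the medians with the miR-34a bait. The vertical line and the grey band are the median, -0.49, and the quartiles of all 3870 genes; of the lists drawn, the secretory pathway lies lowest at -1.40 and the actin, tubulin, filament and motor list highest at 0.46.

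Genes named by earlier work as targets of miR-34a, and those of the silencing machinery, were near the middle in this control comparison. Of 19 published targets 1 was higher, VCL, and 1 lower, with a median of -0.20. HDAC1 was at -0.91. Of 17 genes for Argonaute silencing, deadenylation and decapping 0 were higher or lower, with a median of -0.43. PABPC1, the poly(A)-binding protein, was at -1.87 from 81 and 43927 reads, while AGO2, at 1.52 from 21 and 1082 reads, was a member with fewer than 20 expected reads and is not among the 17. The 1046 genes of the deposited UTR tables had 1 higher and 127 lower, with a median of -0.40.

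The genes for biotin-dependent carboxylases and for biotin handling were not called either. Of 10 genes 4 were members. PC, pyruvate carboxylase, had 34 and 2490 reads and a ratio of 1.02 (95% interval 0.23 to 1.70), and ACACA, acetyl-CoA carboxylase, had 69 and 5228 reads and a ratio of 0.97 (95% interval 0.44 to 1.45). MCCC2 was at -0.62 and the vitamin transporter SLC5A6 at -0.43, each from 20 reads with an interval that holds 0. Among the 6 genes with fewer reads, ACACB was at 0.81, PCCB at -0.27, HLCS, the enzyme that attaches biotin, at -0.52, PCCA at -0.54, BTD at -0.80 and MCCC1 at -1.45, all with intervals that hold 0. These are mRNA shares and do not measure the biotin proteins.

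The ratio showed weak relations to properties of the genes, given across genes and without a test. Promoter GC content was known for 84.4% of the 3849 listed genes with 20 or more expected reads. In 5 bins of equal size, from the lowest GC to the highest, the medians were -0.72, -0.63, -0.45, -0.47 and -0.15, and rho was 0.14. By genomic span the medians were -0.24, -0.45, -0.57, -0.66 and -0.51 from short to long, with rho at -0.07. The number of expected reads had a rho of 0.07.

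Reads were gathered in fewer genes in the pulldown. The top 10 genes held 7.55% of the control pulldown and 4.36% of control total RNA, the top 100 held 26.5% and 16.4%, and the top 1000 held 60.6% and 47.9%. The miR-34a pulldown was close to the control pulldown, with 7.39%, 25.4% and 60.1%. In the pulldown, 41 genes had no row with a control total RNA read, each with at most 15 pulldown reads. COL1A2, a fibroblast collagen gene of the marker list, was one of them with 15 reads.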

How the data were processed

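RNA was isolated with Trizol and sequenced on Illumina libraries, per the labels' protocols. Bowtie2, edgeR and build hg38 are named in the submitters' processing notes. What each was used for, its version, any filter and the use of strand were not given in the sources used here. Deposited counts are whole reads per RefSeq transcript, not normalized by the authors, and list only transcripts with at least 1 control read. The authors also deposited RPKM values, whose worth per read was one value per gene and the same in both tables for 16587 of 16587 shared transcripts (relative tolerance 1e-06), so they are not scaled to each library; they were used only as an alternative.

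Reads were summed per gene name, with date-like names (33 pulldown and 60 total RNA transcripts) resolved by accession, and divided by library totals (Python 3.11.15, pandas 2.3.3, scipy 1.17.1). Of single-transcript genes with 2 to 9 reads, 73.5% of control pulldown and 96.0% of control total RNA counts were even, so the 95% exact (Clopper-Pearson) intervals used counts divided by 2. With 10 to 49 reads the shares were 52.3% and 81.9%. Doubling is thus little seen in the pulldown at these counts, where dividing by 2 makes the intervals wider. TMM (edgeR 4.0.16) and DESeq2 1.42.0 size factors in R 4.3.3 were alternatives. The calculation was tested on simulated data. Accessions of 98.8% and 98.3% of transcripts matched RefSeq.

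Members and gene lists were chosen with earlier results of these data known. Genes were named by rule: the 15 highest, the 15 lowest and the 15 with most pulldown reads among members, the 10 lowest with 20 or more expected reads, the 3 members of each list farthest from the median of all genes, and the carboxylase list in full. Others, such as those high with the control bait, were named after their values were seen. A list of 30 nuclear and structural noncoding RNAs and a list of 20 snoRNA host genes were looked up by name. In each, 0 genes had a row in the deposited counts. The read shares given here therefore leave these RNAs out.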

Additional observations from a re-analysis of the deposited data

Results flagged for a closer look

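In 13 genes the ratio of pulldown to total RNA was on opposite sides of equal shares with the 2 baits, at least 4-fold higher with the control bait and below equal shares with miR-34a. With 1 library in each group this difference was not tested. The counting interval of the miR-34a ratio reached past equal shares for each of the 13, so the side there is not resolved. It ran from -0.50 to 0.23 for VCL and from -0.99 to 0.82 for ARC. The control log2 ratios were 12.81 for BHLHE22, 9.30 for WBP11P1, 4.81 for ISPD, 4.37 for C3orf38, 4.35 for MAST1, 4.07 for VCL and 3.56 for CEP85L. They were 3.29 for BCAR3, 2.72 for VPS13C, 2.70 for THAP1, 2.56 for ARC, 2.10 for CASZ1 and 2.08 for TRIB3. The miR-34a pulldown held 0 reads of BHLHE22, WBP11P1 and THAP1, against 582, 34 and 22 in the control pulldown. ARC and TRIB3 had 23 and 19 miR-34a pulldown reads, close to their 25 and 25 control pulldown reads from a smaller library, and their total RNA reads were 629 and 877 in the control and 1804 and 2037 with miR-34a.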

How the results depend on the processing

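The 104 higher and 50 lower members depend on the threshold on reads. With 20 or more expected reads the counts were 11 and 537, and with no threshold 488 and 1158. At 2-fold they were 546 and 296. The lower count was 119 at 10 or more reads and 12 at 50 or more, since low genes need more expected reads to stay in. With 20 or more miR-34a pulldown reads as the threshold, which 4896 genes reached, 170 genes were higher and 66 lower in the miR-34a pair. The median of members, 0.21, was 0.44 with TMM, 0.50 with DESeq2 size factors, 0.36 without the top 20 genes in the totals, 0.03 with RPKM, 0.04 at 10 or more reads, 0.48 at 50 or more, -0.49 with 20 or more expected reads, -0.28 with no threshold, 0.26 with 1 transcript per gene, 0.13 with transcripts in both tables and 0.05 in the miR-34a pair. The histone median, 10.28, was 10.50 with TMM, 10.56 with DESeq2, 10.42 without the top 20 genes, 10.09 with RPKM, 10.19 with no threshold or with transcripts in both tables, 10.21 with 1 transcript, 10.57 over miR-34a total RNA, 10.64 in the miR-34a pair, and 4.84 with 20 or more expected reads, which leaves 1 gene. The named genes called higher or lower were compared with the miR-34a pair where they had 20 or more miR-34a pulldown reads. VCL and ARC changed side there, at -0.12 and -0.01, but both miR-34a intervals reach past equal shares. Genes with fewer miR-34a pulldown reads are given above. Of the other values for named genes 3002 moved by less than their counting interval and 273 by more. Alternatives that changed only the threshold leave a gene's ratio as it was, so their values are among the 3002 by construction. Undivided counts gave 1211 higher and 649 lower members beyond counting error, against 956 and 498. No paired analysis was possible because each group has 1 library, and leaving out a replicate and protein length as a length measure could not be run. Depth limits the pulldown: a gene needs 20 of 306996 reads to be a member. The H2B sum without HIST1H2BK, 8.44 in place of 6.75, was chosen after seeing the data.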
